A study of Mus musculus with 2 samples.

Results

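The genes described here encode the enzymes and regulators of cholesterol and fatty acid synthesis in B16F1 cells, a murine melanoma line. They are 36 of the 27790 genes on the array and were chosen by name for their place in these pathways. The sterol branch has 19 members, the fatty acid branch has 12, and 5 regulators of both branches make up the rest. On each array, all 36 had a probe well above background for both lines, so none was lost to the filter on dim probes that left 12540 detected genes.

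RNA of 2 lines was hybridised on 2 Agilent 2-colour arrays of 1 slide, with the dyes exchanged. B16F1-GFP-M is the maternal line, B16F1 cells that express green fluorescent protein (GFP). B16F1-GFP-D is the dormant line, a single clone grown from GFP-positive cells that had been sorted from the pooled organs of control and immunised mice without tumours, 1 year after these were challenged with the maternal cells. Neither line was treated, and both were grown in the same serum-containing medium. On array 1 the maternal line was labelled with Cy5 and the dormant line with Cy3, and on array 2 the dyes were swapped. The labels do not say whether the arrays carry the same RNA extracts. Each line was counted as 1 replicate, so no test can be made. Ratios are given as log2 of the dormant over the maternal line (D over M) on each array. Their error is the standard deviation (SD) between the arrays, which holds dye effects and cannot be read as variation between cultures.

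Cholesterol is built from acetyl-CoA through mevalonate, isopentenyl diphosphate, farnesyl diphosphate, squalene and lanosterol. Fatty acids are built from the same acetyl-CoA through malonyl-CoA, and are then elongated, desaturated and activated with coenzyme A. Both routes are switched on by the sterol regulatory element binding proteins (SREBPs), which are encoded by *Srebf1* and *Srebf2* and lie in the membrane of the endoplasmic reticulum bound to SCAP. When membrane sterol is low, SCAP carries them to the Golgi, where proteases release the part that enters the nucleus. When sterol is plentiful, the INSIG proteins hold SCAP back. In the nucleus the SREBPs bind sterol regulatory elements in promoters, often with NF-Y, a factor that binds the CCAAT box.

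The promoters of 6 members are shown because they span the range of the ratios, from the sterol genes with the largest increases and *Fasn* to *Tm7sf2*, the sterol gene that was lower in B16F1-GFP-D. Each is the reference sequence of the 250 bases before the RefSeq transcription start on GRCm38.p6, 5′ to 3′ on the strand of the gene; it was not read in these cells. Capitals mark the sterol regulatory element TCACNCCAC and the CCAAT box, which reads ATTGG where it lies on the opposite strand. *Idi1* spans chr13:8885356-8885605 and *Hmgcs1* chr13:119690101-119690350, both on the plus strand. On the minus strand lie *Mvd* at chr8:122443423-122443672, *Hsd17b7* at chr1:169969206-169969455, *Fasn* at chr11:120824548-120824797 and *Tm7sf2* at chr19:6067851-6068100.
Idi1: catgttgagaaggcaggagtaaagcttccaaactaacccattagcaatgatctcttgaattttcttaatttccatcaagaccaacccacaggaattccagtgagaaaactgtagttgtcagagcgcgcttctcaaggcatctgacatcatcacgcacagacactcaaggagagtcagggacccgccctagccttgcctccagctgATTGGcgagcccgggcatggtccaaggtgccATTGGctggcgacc
Mvd: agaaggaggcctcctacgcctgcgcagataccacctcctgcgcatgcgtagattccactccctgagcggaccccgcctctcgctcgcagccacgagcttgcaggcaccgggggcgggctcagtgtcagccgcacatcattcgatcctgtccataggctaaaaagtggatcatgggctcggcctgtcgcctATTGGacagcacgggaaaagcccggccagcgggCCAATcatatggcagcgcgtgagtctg
Hmgcs1: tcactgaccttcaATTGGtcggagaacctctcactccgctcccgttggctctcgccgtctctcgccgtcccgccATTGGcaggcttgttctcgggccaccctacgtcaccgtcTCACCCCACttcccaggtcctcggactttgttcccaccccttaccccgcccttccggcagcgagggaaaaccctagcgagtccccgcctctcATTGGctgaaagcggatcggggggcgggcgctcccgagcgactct
Hsd17b7: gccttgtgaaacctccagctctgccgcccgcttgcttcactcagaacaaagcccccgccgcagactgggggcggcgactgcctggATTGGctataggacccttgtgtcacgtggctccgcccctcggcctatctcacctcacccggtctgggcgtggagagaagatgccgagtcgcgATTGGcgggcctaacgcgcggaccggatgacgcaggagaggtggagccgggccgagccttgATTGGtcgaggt
Fasn: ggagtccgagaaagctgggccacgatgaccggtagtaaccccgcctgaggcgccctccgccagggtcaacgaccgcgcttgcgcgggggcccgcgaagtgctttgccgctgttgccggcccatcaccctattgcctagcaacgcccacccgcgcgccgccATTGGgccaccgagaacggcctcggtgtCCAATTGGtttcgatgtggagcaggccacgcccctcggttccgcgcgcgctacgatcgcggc
Tm7sf2: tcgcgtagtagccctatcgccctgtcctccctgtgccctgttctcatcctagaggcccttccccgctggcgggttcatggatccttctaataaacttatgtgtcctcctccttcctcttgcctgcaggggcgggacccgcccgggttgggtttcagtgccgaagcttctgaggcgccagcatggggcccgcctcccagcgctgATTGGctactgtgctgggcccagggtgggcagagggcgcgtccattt

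The TCACNCCAC element was found only in *Hmgcs1*, where it begins 137 bases before the start, among the 29 members with a promoter in the table. Of all 27025 genes in the table, 1.22% had this element in such a window. The CCAAT box was more frequent: 14 of the 15 sterol genes with a promoter held it on either strand before at least 1 of their starts, and *Acat2* did not. It was found in 5 of the 9 fatty acid genes, which were *Acacb*, *Fasn*, *Elovl1*, *Elovl5* and *Acsl3*, in 4 of the 5 regulators, and in 37.5% of all genes. *Fasn* has 3 CCAAT matches, and 2 of them overlap on opposite strands in the letters CCAATTGG. *Tm7sf2*, with a lower ratio, and *Pmvk*, with a ratio near 0, hold a CCAAT box as well. Such matches describe letters and not bound sites, and a window without a match says only that these letters are not in it. The promoters of *Fdft1*, *Fdps*, *Sqle*, *Stard4*, *Fads1*, *Scd1* and *Scd2* were not analysed here.

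Most members were higher in the dormant line. The ratio was above 0 on both arrays for 32 of the 36, against 41.0% of all detected genes, and below 0 on both for *Tm7sf2* and *Srebf1*, against 42.8%. *Pmvk* and *Insig2* changed sign between the arrays. A gene was called when it was at least 2-fold higher or lower on each array. By this rule of size 11 members were called higher, or 30.6%, beside 3.09% of all detected genes. None was called lower, beside 1.94%. With each array centred on its median in place of loess, none of the 11 was called, beside 0.359% of all detected genes called higher. At 1.5-fold on each array 21 members were past the threshold upwards, beside 8.77%, and none downwards, beside 7.02%. The median ratio of the members was 0.78, while that of all detected genes was -0.01. In bulk RNA, a change in the share of cells that express a gene and a change in RNA per cell cannot be told apart.

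**Figure D1:**
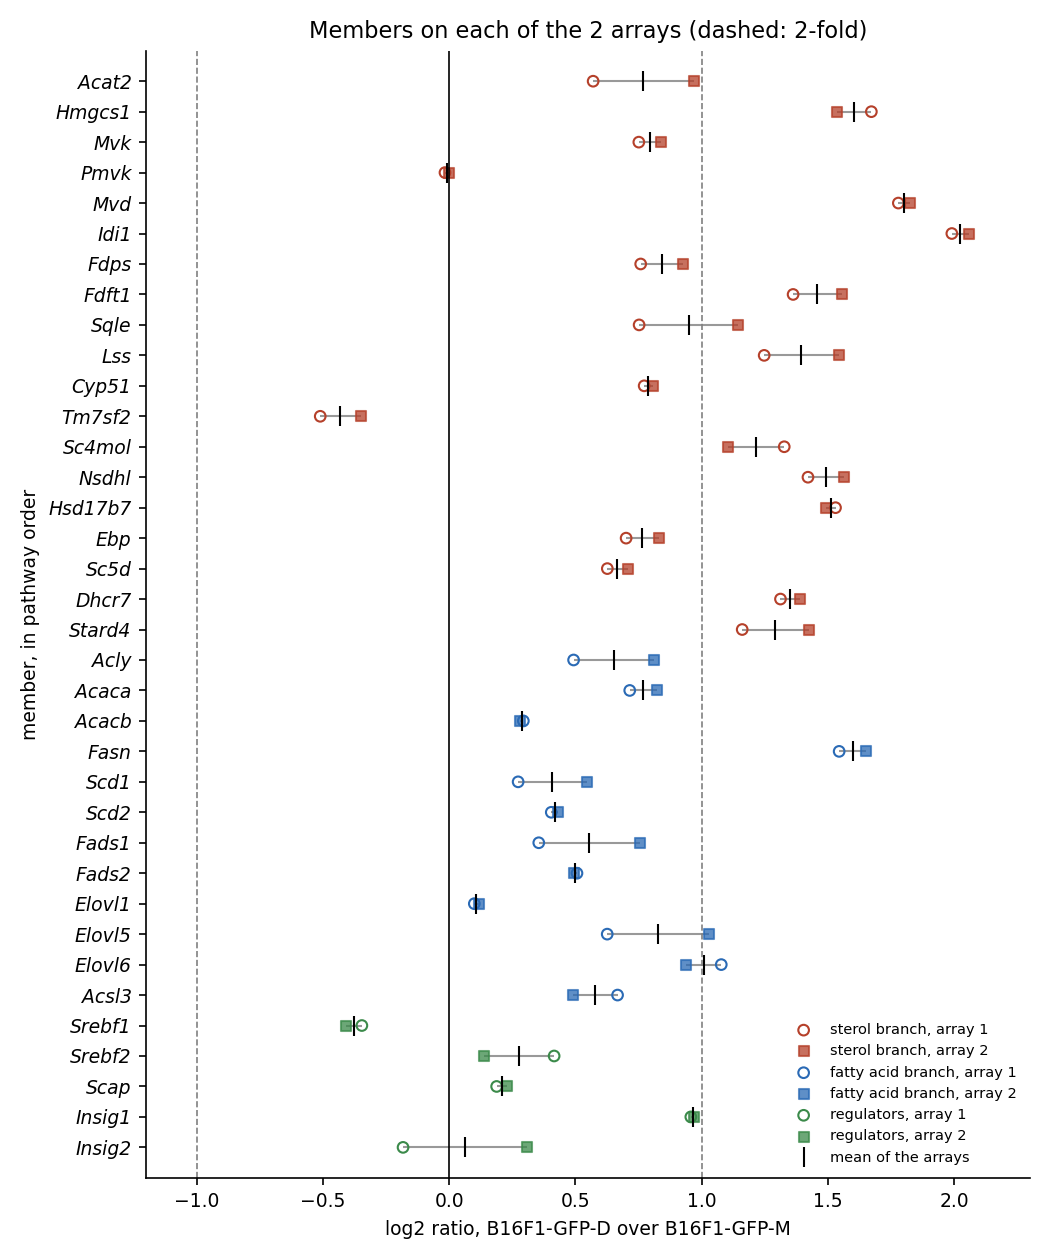
Log2 ratio of D over M (horizontal axis) of the 36 members in pathway order, on array 1 (open circles) and array 2 (filled squares), with the mean as a vertical tick and 2-fold as dashed lines. The 11 called members, 10 of the sterol branch and *Fasn*, lie to the right of the 2-fold line on both arrays, and *Tm7sf2* and *Srebf1* lie left of 0.

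After loess, the values on array 1 and array 2 lay close to each other for most members. With median centring alone, the medians of all detected genes were -0.86 on array 1 and 1.02 on array 2. After loess, the SD between the arrays was 0.15 when pooled over the members and 0.15 when pooled over all detected genes. It was largest for *Insig2*, at 0.35, followed by *Elovl5*, *Fads1*, *Acat2* and *Sqle*, each at 0.28. The ratio was smaller than its SD for *Insig2* and *Pmvk* alone. Across all detected genes, which are not independent replicates, the ratios on array 1 and array 2 correlated with a Pearson coefficient of 0.927.

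**Figure D2:**
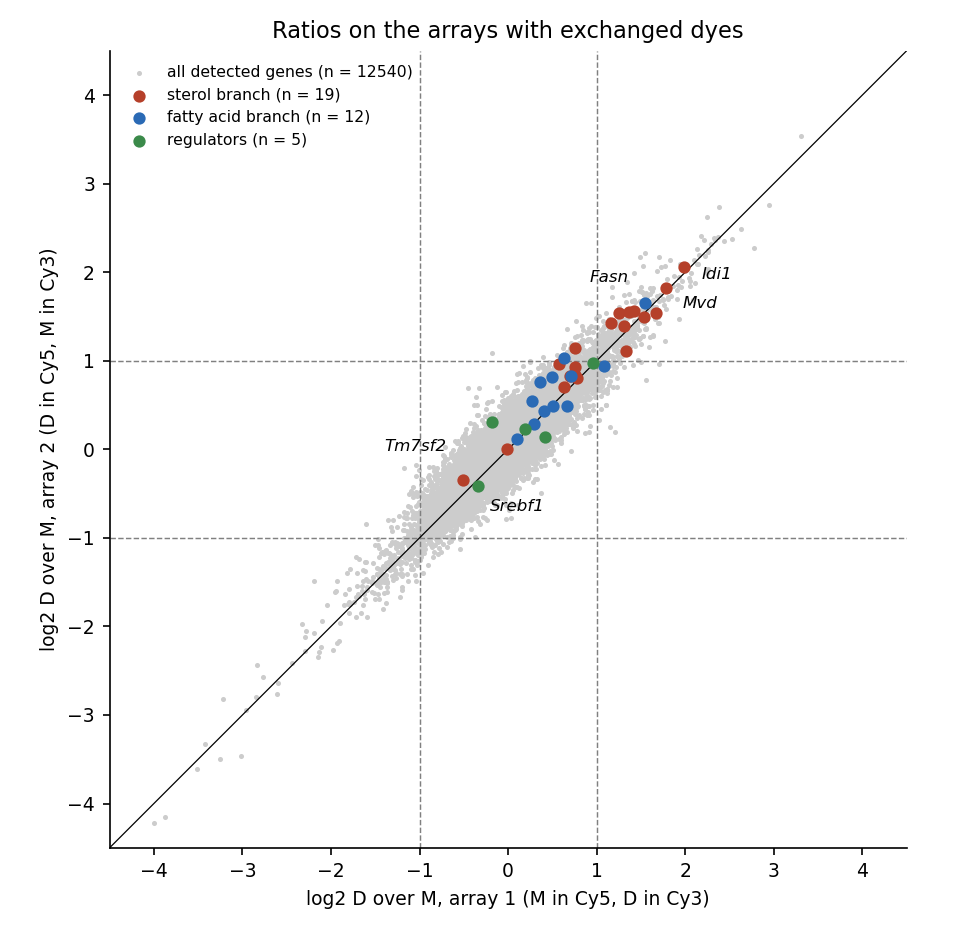
Log2 ratios of D over M on array 1 (horizontal axis) and array 2 (vertical axis), with the dyes exchanged, for 12540 detected genes in grey, 19 sterol genes in red, 12 fatty acid genes in blue and 5 regulators in green; dashed lines mark 2-fold and the solid line equal ratios. Of the members, 32 lie above 0 on both arrays, and *Idi1* is farthest along the diagonal, at 1.99 and 2.06.

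The sterol branch had the larger increases. Of its 19 members, 17 were higher in the dormant line on both arrays, beside 41.0% of all detected genes. Of the 19, 10 were called higher, beside 3.09%, and 16 were past 1.5-fold upwards on both arrays, beside 8.77%. The median ratio was 1.22, or 2.32-fold, with array medians of 1.16 and 1.15, and the ratios ran from -0.43 to 2.03. The steps from acetyl-CoA to farnesyl diphosphate had a median of 0.84 over 7 genes, of which 3 were called, and the steps from squalene to cholesterol had a median of 1.22 over 11 genes, of which 6 were called. Called genes thus stood at early and late steps of the route.

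The mevalonate steps held the members with the largest ratios. *Idi1* encodes isopentenyl diphosphate isomerase, which makes the starter unit of isoprenoid chains, and its probe lies at chr13:8891386-8891445 on mm9. Its log2 intensity in B16F1-GFP-D was 11.50 on array 1 and 11.60 on array 2, against 9.51 and 9.54 in B16F1-GFP-M. The ratio of 2.03 ± 0.05 (SD, 2 arrays), or 4.07-fold, ranked 26 among the 387 genes called higher. *Mvd*, the mevalonate diphosphate decarboxylase that makes isopentenyl diphosphate, is measured at chr8:124957750-124957809. It had log2 intensities of 10.58 and 10.68 in B16F1-GFP-D and of 8.81 and 8.85 in B16F1-GFP-M, a ratio of 1.80 ± 0.03, or 3.49-fold. *Hmgcs1*, the cytosolic synthase of hydroxymethylglutaryl-CoA at the entry of the pathway, had log2 intensities of 12.50 and 12.17 in B16F1-GFP-D and of 10.82 and 10.63 in B16F1-GFP-M. Its ratio was 1.61 ± 0.09, or 3.04-fold. In each of these 3 genes both values of the dormant line lay above both values of the maternal line. The rule of 2-fold on each array largely fixes this, and the share among all detected genes was not computed.

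The other 4 genes of these steps stayed below 2-fold on both arrays. *Fdps*, the farnesyl diphosphate synthase, had ratios of 0.76 and 0.93. Mevalonate kinase, encoded by *Mvk*, had 0.75 and 0.84. *Acat2*, an acetyl-CoA acetyltransferase that joins acetyl-CoA units, had 0.57 and 0.97, and its lines did not overlap either. With an offset of 0, the mean ratio of *Acat2* went from 0.77 to 1.15 and that of *Mvk* from 0.80 to 0.98. *Fdps* went from 0.84 to 0.83 and *Pmvk* from -0.01 to -0.02, and no member was gained as a call. *Pmvk*, the phosphomevalonate kinase that acts between *Mvk* and *Mvd*, stood apart from its neighbours. Its log2 intensity was 11.02 and 11.22 in B16F1-GFP-D and 11.04 and 11.22 in B16F1-GFP-M, so that the lines overlapped and the mean ratio was -0.01. Its second probe also had a mean of -0.01.

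From squalene on, the called genes covered several enzymes of the sterol ring. *Fdft1* encodes squalene synthase, the first enzyme committed to sterols, with log2 intensities of 10.64 and 10.77 in B16F1-GFP-D and of 9.28 and 9.21 in B16F1-GFP-M. Its ratio was 1.46 ± 0.14. *Lss*, the lanosterol synthase that closes the rings, had 9.63 and 10.03 in B16F1-GFP-D against 8.38 and 8.48 in B16F1-GFP-M, a ratio of 1.40 ± 0.21. *Sqle*, the squalene epoxidase between them, had ratios of 0.75 and 1.15 and was past 2-fold on array 2 alone.

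The removal of the methyl groups of lanosterol involves several members. *Sc4mol*, the methylsterol monooxygenase now named *Msmo1*, had log2 intensities of 14.09 and 14.11 in B16F1-GFP-D and of 12.76 and 13.00 in B16F1-GFP-M, a ratio of 1.22 ± 0.16. The sterol dehydrogenase of the same complex, encoded by *Nsdhl* at chrX:70203236-70203295, had 9.34 and 9.65 against 7.92 and 8.09, a ratio of 1.49 ± 0.10. *Hsd17b7*, the ketoreductase that completes this step, is measured at chr1:171882591-171882650. It had 10.58 and 10.87 in B16F1-GFP-D against 9.05 and 9.38 in B16F1-GFP-M, a ratio of 1.51 ± 0.03. All 3 of these demethylation enzymes were thus past 2-fold. *Cyp51*, the lanosterol demethylase of the cytochrome P450 family, had ratios of 0.77 and 0.81 from its brightest probe, but its other probes had means of 1.03 and 1.44 and were past 2-fold on both arrays.

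The last steps were more mixed. *Dhcr7*, the reductase that makes cholesterol from its direct precursor, had log2 intensities of 13.03 and 13.09 in B16F1-GFP-D and of 11.71 and 11.70 in B16F1-GFP-M, a ratio of 1.35 ± 0.05. The sterol isomerase *Ebp* had ratios of 0.70 and 0.83 and the desaturase *Sc5d* had 0.63 and 0.71, past 1.5-fold on both arrays. *Tm7sf2*, a sterol reductase that shares its reaction with the lamin B receptor, ran the other way. It had log2 intensities of 10.65 and 10.80 in B16F1-GFP-D and of 11.16 and 11.15 in B16F1-GFP-M, a ratio of -0.43 ± 0.11, so that both values of the dormant line were the lower ones. *Stard4*, a carrier that moves cholesterol between membranes, had 9.73 and 9.98 against 8.57 and 8.56, a ratio of 1.29 ± 0.19, and was called.

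**Figure D3:**
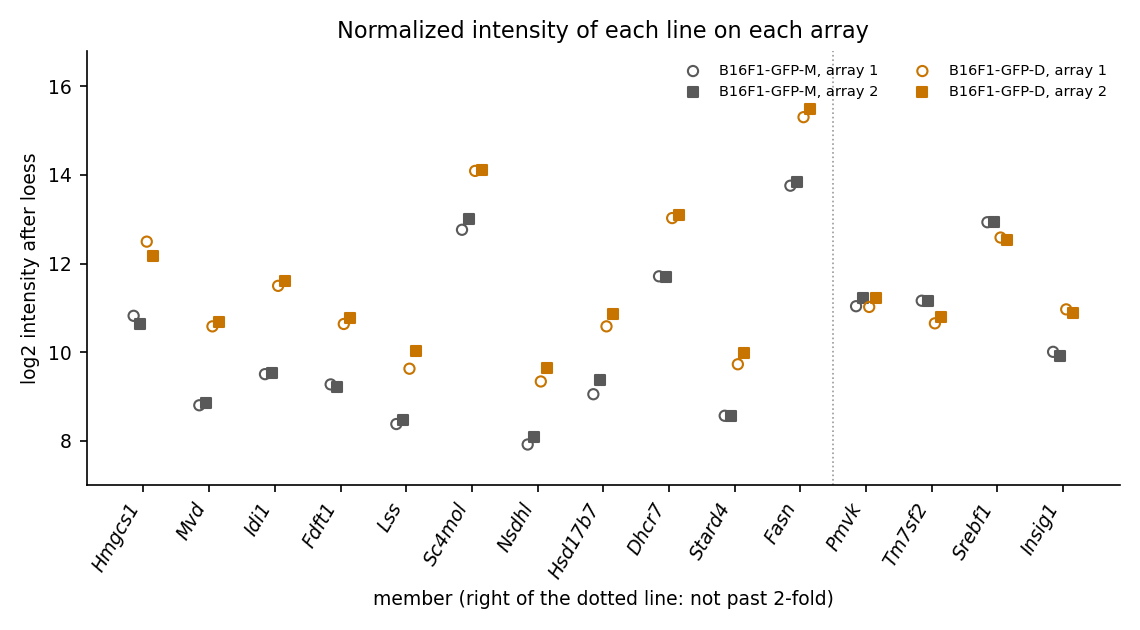
Normalized log2 intensity (vertical axis) of the 11 called members and, right of the dotted line, of *Pmvk*, *Tm7sf2*, *Srebf1* and *Insig1*, in B16F1-GFP-M (grey) and B16F1-GFP-D (orange) on array 1 (circles) and array 2 (squares). Within each called member both orange values lie above both grey ones, which the call at 2-fold on each array largely fixes. Heights of different genes come from different probes and are not comparable.

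In the fatty acid branch the increases were smaller, with 1 exception. All 12 members were higher in the dormant line on both arrays, beside 41.0% of all detected genes. Of the 12, 4 were past 1.5-fold upwards on both, or 33.3%, beside 8.77%. Only 1 was called higher, or 8.33%, beside 3.09%. The median ratio was 0.57, or 1.48-fold, with array medians of 0.50 and 0.65. The called gene was *Fasn*, the fatty acid synthase that makes palmitate, measured at chr11:120668460-120668519 on mm9. Its log2 intensity was 15.30 and 15.48 in B16F1-GFP-D and 13.76 and 13.83 in B16F1-GFP-M, a ratio of 1.60 ± 0.07, or 3.03-fold. A second, dimmer probe of *Fasn* was also past 2-fold, with a mean of 1.32.

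The enzymes that feed *Fasn* had smaller ratios. *Acly*, the ATP citrate lyase that makes cytosolic acetyl-CoA, had ratios of 0.49 and 0.81. *Acaca*, the cytosolic acetyl-CoA carboxylase that makes malonyl-CoA for synthesis, had 0.72 and 0.82 from its brightest probe, while its 3 other probes had means of 0.05, 0.15 and 0.23. The mitochondrial carboxylase *Acacb*, whose malonyl-CoA restrains fatty acid oxidation, had 0.29 and 0.28 from its brightest probe. Its other probe had -0.05 and 0.24. The brightest probes of all 3 genes were above 0 on both arrays and below 2-fold.

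Among the enzymes that modify fatty acids, *Elovl6*, which lengthens palmitate, came closest to the threshold, with 1.08 on array 1 and 0.94 on array 2. *Elovl5*, which acts on polyunsaturated chains, had 0.63 and 1.03. *Elovl1*, an elongase of very long chains, had 0.10 and 0.12, the lowest of the branch. Thus the 3 elongases spanned the range of the branch below *Fasn*. The stearoyl-CoA desaturases *Scd1* and *Scd2*, which make monounsaturated chains, had means of 0.41 and 0.42. The polyunsaturated desaturases *Fads1* and *Fads2* had 0.56 and 0.50. *Acsl3*, which activates fatty acids with coenzyme A, had 0.67 and 0.49.

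The difference between the branch medians was 0.65 on the log2 scale, with 0.66 on array 1 and 0.50 on array 2. Of the sterol members, 17 of 19 lay above the median of the fatty acid branch, and 10 lay above *Elovl6*, which had the highest mean of that branch after *Fasn*. Of the fatty acid members, only *Fasn* lay above the median of the sterol branch. Without *Stard4* and *Fasn* the difference was 0.53. The genes within a branch are not replicates, and no test was made. With the median over all probes of a gene in place of the brightest, the difference was 0.38 and 8 members were called. This median takes in probes not well above background. Single probes are described below.

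**Figure D4:**
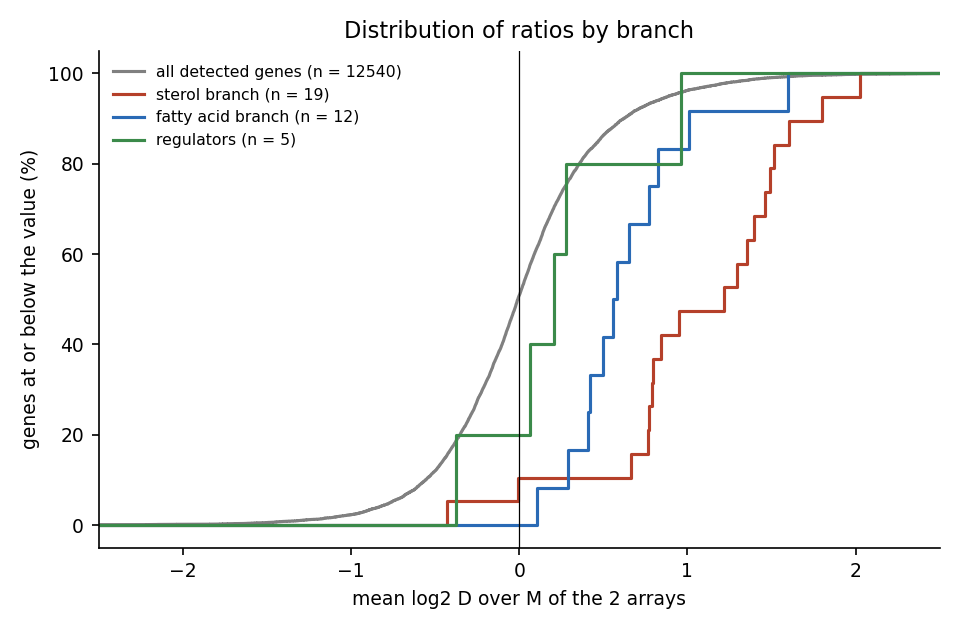
Cumulative share of genes (vertical axis, %) at or below a mean log2 ratio of D over M (horizontal axis), for all 12540 detected genes, the 19 sterol genes, the 12 fatty acid genes and the 5 regulators. At the median, the curve of the sterol branch is farthest to the right, at 1.22. It is followed there by the fatty acid branch at 0.57, the regulators at 0.21 and all detected genes at -0.01. At its low end the sterol curve starts at -0.43, left of the fatty acid curve, which starts at 0.11.

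None of the 5 regulators was called, beside 3.09% of all detected genes called higher and 1.94% called lower. The regulators did not move as a block. *Insig1*, which retains SCAP and is itself an SREBP target, had log2 intensities of 10.97 and 10.89 in B16F1-GFP-D and of 10.01 and 9.92 in B16F1-GFP-M. Its ratio of 0.96 ± 0.01, or 1.95-fold, was just below the threshold on both arrays. *Srebf1*, the SREBP gene tied mostly to fatty acid synthesis, was lower, with 12.59 and 12.54 in B16F1-GFP-D against 12.93 and 12.94 in B16F1-GFP-M. Its ratio was -0.38 ± 0.05. *Srebf2*, the SREBP gene tied mostly to cholesterol, had ratios of 0.42 and 0.14 from its brightest probe, and its other probes above background had means of 0.45 and 0.78. *Scap* had 0.19 and 0.23. *Insig2*, the second retention protein, had -0.18 and 0.31, with overlapping lines. The arrays measure transcripts, and the cleaved nuclear form of the SREBPs was not measured.

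Several probes existed for 21 of the 36 members, which allowed the ratios to be set beside others of the same gene. Of the 31 further probes, 26 were well above background, and 25 of these had the sign of the brightest probe. The exception was *Fdps*, whose second probe had a mean of -0.19 against 0.84. The further probes were dimmer by the way the brightest was chosen, and 18 of the 26 lay closer to 0. The called members had 11 further probes above background, all with a ratio above 0, of which 5 were past 2-fold on both arrays. *Idi1*, *Nsdhl*, *Dhcr7* and *Fasn* were past 2-fold with more than 1 probe: the second probe of *Idi1* had 1.56 on array 1 and 1.61 on array 2, those of *Nsdhl* had means of 1.56 and 1.74, and that of *Dhcr7* had a mean of 1.40. The further probes of *Hmgcs1*, *Lss* and *Stard4* above background had means between 0.50 and 0.90.

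**Figure D5:**
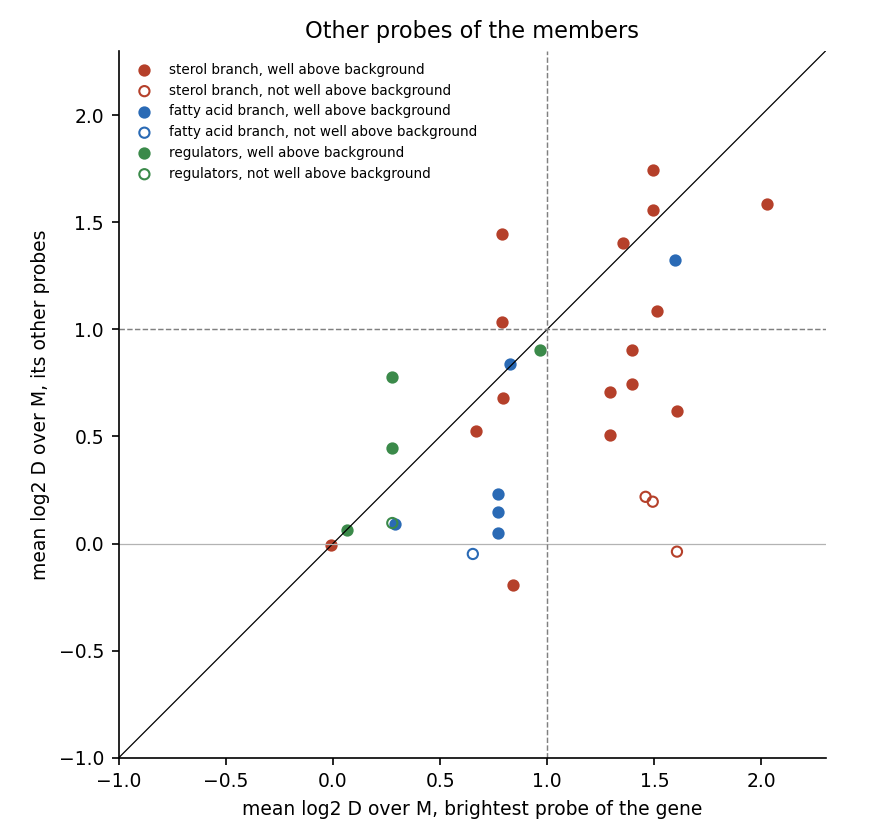
Mean log2 ratio of the further probes of a member (vertical axis) against that of its brightest probe (horizontal axis), for the sterol branch (red), the fatty acid branch (blue) and the regulators (green); open circles are probes not well above background, dashed lines mark 2-fold and the solid line equal ratios. Of the 26 filled points, 25 have the same sign on both axes, and 18 lie closer to 0 than the brightest probe.

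Other genes of lipid metabolism, taken from lists of known roles, had median ratios nearer 0. Among all detected genes, 3.09% were called higher and 1.94% lower. Of 8 detected genes that process SREBPs none was called, and their median was -0.13. None of 9 detected genes that use isoprenoids was called, with a median of -0.05. In cholesterol trafficking and efflux, 1 of 12 detected genes was called and the median was -0.06. It was *Mylip*, which encodes a ubiquitin ligase induced by the sterol-sensing liver X receptors. Its log2 intensity was 8.12 and 8.02 in B16F1-GFP-D and 9.50 and 9.48 in B16F1-GFP-M, a ratio of -1.42 ± 0.06, or 2.68-fold lower in the dormant line, while another probe averaged -0.52. Of the 12, 5 were higher and 6 lower in the dormant line on both arrays, beside 41.0% and 42.8% of all detected genes. The uncalled genes ran from *Osbpl2*, which encodes an oxysterol-binding protein relative, with -1.08 and -0.54, to the lipoprotein receptor gene *Scarb1*, with 0.67 and 0.62.

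Fatty acid supply and elongation had no called gene among 15 detected, with a median of 0.24 and means from -0.85 to 0.98. Of the 15, 9 were higher and 5 lower on both arrays, beside 41.0% and 42.8% of all detected genes. *Aacs*, the acetoacetyl-CoA synthetase that turns ketone bodies into lipid precursors, came nearest, with 0.98 and 0.99. *Acss2*, a cytosolic acetyl-CoA synthetase, had 0.57 and 0.62. Fatty acid oxidation had a median of 0.26 over 16 detected genes and no call. Among 12 detected genes of glycerolipid synthesis and storage, with a median of -0.01, only *Mgll* was called. Of all detected genes, 3.09% were called higher. *Mgll* encodes monoacylglycerol lipase, which frees fatty acids from monoacylglycerols. Its log2 intensity was 13.76 and 13.85 in B16F1-GFP-D and 11.55 and 11.48 in B16F1-GFP-M, a ratio of 2.29 ± 0.11, or 4.89-fold, above every member. A further probe of *Mgll* had a mean of 2.27, and another, not well above background, had a mean of 0.19.

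Of the markers of other cell types, none was called, beside 3.09% of all detected genes called higher and 1.94% called lower. All 7 melanocyte markers on the array were detected, with a median ratio of -0.34 and means from -0.92 to 0.30. Of these, 4 were lower in the dormant line on both arrays and 2 were higher, beside 42.8% and 41.0% of all detected genes. No liver marker of 3 and no adipocyte marker of 5 was detected, which are tissues that express many of the members strongly. Detected markers were 2 of 7 for fibroblasts, 3 of 6 for leukocytes, without the leukocyte antigen gene *Ptprc*, and 3 of 5 for brain. The members lie on 16 chromosomes. The other detected genes of chromosomes 3, 13 and 17 had medians of -0.15, -0.16 and -0.17, while *Idi1* and *Hmgcs1* on chromosome 13, *Fdps* and *Elovl6* on chromosome 3 and *Acat2* on chromosome 17 were higher in B16F1-GFP-D. The third member on chromosome 3, *Pmvk*, had a mean of -0.01.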

How the data were processed

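Both arrays, mouse Agilent 2-colour arrays read with Agilent Feature Extraction 10.7.3.1 per the labels, were used. The authors' scanner software measured the mean intensity and median local background of each spot, and these deposited intensities carry no normalization. The deposited log10 ratios of Cy5 over Cy3, in the scanner files and in the series value table, come from the software's own background-subtracted and dye-normalized intensities and were used only as alternatives. Flags for spots well above background and for outliers are other values the authors deposited; the number of arrays and the signal over background limit the precision.

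From 43379 spots that are not controls, 143 and 176 outlier spots were left out. In R 4.3.3 with limma 3.58.1, intensities were corrected by normexp with an offset of 50, normalized by loess within each array and turned to log2 of the dormant over the maternal line. For the log2 intensities of each line, the average spot intensities were also quantile-normalized between the arrays. This step brings the levels of the arrays together and leaves the ratios unchanged. The offset draws dim spots towards 0. Between 44.1% and 60.7% of spots were well above background in each line and array, and 0 were saturated. A gene was detected when its brightest probe was flagged above background for 1 line or both, on each array. Names were matched through RefSeq accessions to GRCm38.p6 (27198 of 28075 probes matched); the array files give probe positions on mm9, and their place within exons was not analysed here. The labels name no separate cultures. Calls follow a rule of size, not a test. Named genes are all members, every called gene of the related lists and at most 5 others of these, and cell type markers. Members, lists and alternatives were chosen with earlier results of these data known. Other genes of these pathways are not reported here. The alternatives were other background corrections and normalizations, filters on dim probes, the median over probes, single arrays and other thresholds. Tables were made in Python 3.11.15 (pandas 2.3.3, numpy 2.4.6), and figures with matplotlib 3.10.9.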

Additional observations from a re-analysis of the deposited data

How the results depend on the processing

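No called member changed sign under any of the 10 alternatives that gave member values, and all 12 fatty acid genes stayed above 0 in their mean; *Pmvk* changed sign with median centring and without array 1, and *Insig2* without array 2. Of 360 member values under these alternatives, 80 moved by more than the SD between the arrays. The filters on dim probes kept every member, so the values under them repeat the main ones. By arithmetic, a single array lies closer to the mean of both arrays than this SD. Neither kind of setting could thus add to the 80 or change the sign of a called member. The number called higher, 11, was 21 at 1.5-fold on each array, and the number called lower was 0 in every alternative. With median centring, 0 members were called higher, beside 0.359% of all detected genes; this setting does not remove dye effects tied to brightness: the medians of all detected genes were then -0.86 on array 1 and 1.02 on array 2. The branch medians of the means with median centring were 1.36 (sterol) and 0.71 (fatty acid), with a difference of 0.65. With the median over all probes of a gene, dim ones included, 8 were called. *Fdft1*, *Hmgcs1*, *Lss* and *Stard4* were lost and *Cyp51* was gained. Neither the only further probe of *Fdft1*, with a mean of 0.22, nor a further *Hmgcs1* probe, with -0.04, was well above background. The share of all detected genes called was not computed for this setting. The medians were then 0.84 (sterol) and 0.46 (fatty acid), and the difference was 0.38. The sterol median was 1.18 with an offset of 0, 1.25 with the log ratio of the scanner software and 1.26 with the authors' value table; with either of the last pair *Elovl6* was called as well, while the share of all detected genes called higher went from 3.09% to 6.05% and 6.04%. Single arrays gave 12 to 13 calls, a sterol median of 1.15 to 1.16, a fatty acid median of 0.50 to 0.65 and a difference of 0.50 to 0.66. There the call and the detection used that array alone, which is a looser rule. The share of all detected genes called was not computed for single arrays. Chosen after seeing the data, leaving out *Stard4* and *Fasn* gave a sterol median of 1.08 and a difference of 0.53. No paired analysis was possible because the lines have 1 replicate each. The 2 arrays carry the same lines on 1 slide, so variation between cultures and between slides was not measured, and dim probes understate ratios under an offset of 50.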
